A study of Homo sapiens with 4 samples.

Results

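The aminoacyl-tRNA synthetases are the enzymes that load each tRNA with its amino acid, and their mRNAs were followed here in a pull-out of RNA with biotin-tagged miR-26a. The 35 genes were taken by name from a list of synthetases, 19 cytosolic and 16 mitochondrial, out of 25673 genes in the tables. All 35 had rows in the deposited tables. RNA held on streptavidin beads was sequenced from DU-145, an established line of human prostate cancer. The 2 biotin libraries came from cells given duplexes of miR-26a with biotin on the 3′ end, mixed from a form with a thiouridine at nucleotide 7 and a form with it at nucleotide 17. Thiouridine crosslinks to RNA under long-wave UV. The 2 control libraries came from cells given an untagged miR-26a duplex, and the tag and the thiouridine were therefore present or absent together. Every culture received 60 nM duplex by lipofection 24 h after seeding and was irradiated the next day at 365 nm with 2 J/cm2, so no library lacked added miR-26a. The series design names 2 biological replicates per group. Every library was of RNA held on the beads and none was of the input RNA. Capture by the beads and level in the cells therefore cannot be told apart. Cultures were sampled whole, so fewer cells of a kind and less RNA per cell cannot be told apart either.

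Each synthetase recognises 1 amino acid and its tRNAs, and the charged tRNA then brings that amino acid to the ribosome. The cytosol and the mitochondrion translate separately, and most amino acids have a nuclear gene for each compartment, while GARS1 and KARS1 each encode both the cytosolic and the mitochondrial enzyme. EPRS1 joins 2 activities, for glutamate and proline, in a single protein, and several cytosolic enzymes sit in a large multi-synthetase complex. Many cytosolic synthetase genes are transcribed more when amino acids are short, through the transcription factor ATF4, and WARS1 is also induced by interferon gamma.

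The sequence that carried the tag is shown first, with the seed (nucleotides 2 to 8 from the 5′ end) in capitals, because pairing of the seed is what defines the sites searched for below. The mature sequence is that of RefSeq (GRCh38.p14), which is the same from MIR26A1 on chromosome 3 and from MIR26A2 on chromosome 12.
hsa-miR-26a-5p: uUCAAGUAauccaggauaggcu

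The reverse complement of that seed, TACTTGA, was searched on the sense strand of the main transcript of each gene, as given by GENCODE 29 (GRCh38), whose transcripts can differ in length from the deposited rows. It occurred in the 3′ UTR of 1 of 35 synthetases, IARS1, against 11.9% of 9300 tested mRNA genes. It occurred in the coding region of 4 of 35, against 6.78% of the tested mRNA genes. The median 3′ UTR of the synthetases was 406 nt and their median coding region 1782 nt, against 967 and 1338 nt over the tested mRNA genes, so the stretches searched differed in length. The 5 matches are printed with up to 11 bases on either side, 5′ to 3′ along the mRNA, with the match in capitals, because they are the full set in this family.
IARS1, 3′ UTR: gtttatttctaTACTTGAgttcttaagta
EPRS1, coding region: ggtcttgcagaTACTTGActtatatgctc
GARS1, coding region: acatgcctgggTACTTGAgaccagaaact
IARS2, coding region: ccaaggatgaaTACTTGAtcaacagccaa
MARS1, coding region: ctatcaccagcTACTTGAgaaggttcgga

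In GRCh38 the match of IARS1 was at chr9:92210535-92210541, on the minus strand and 266 nt after the stop codon. The matches in coding exons were at chr1:219980224-219980230 (minus strand) for EPRS1, chr7:30612097-30612103 (plus strand) for GARS1, chr1:220114461-220114467 (plus strand) for IARS2 and chr12:57514836-57514842 (plus strand) for MARS1. A match is a description of these letters and not a shown site of binding. None of these 5 genes passed the test of the pull-out described next, and the genes that passed it held no such match in any region of the transcript searched. The shorter 6-base match, ACTTGA, which every 7-base match contains, occurred in the 3′ UTR of 6 synthetases (17.1%) and in the coding region of 14 (40.0%), against 34.2% and 26.4% of the tested mRNA genes. Among the 5 genes that passed, HARS2 held it in the 3′ UTR, and SARS1, TARS1 and RARS2 held it in the coding region.

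Setting the tagged against the untagged pull-out asks which RNAs came down with the biotin on miR-26a. Here 2 synthetases rose, SARS1 and HARS2, and 3 fell, TARS1, WARS1 and RARS2. Levels were summed over the transcripts of a gene and are in FPKM, a count of fragments scaled to transcript length and to the library's mapped fragments. Tests used limma on log2(FPKM + 1), with a Benjamini-Hochberg adjusted p below 0.05 over all 9941 tested genes as the threshold. A gene was tested where it reached 1 FPKM in at least 2 libraries, which 32 of the 35 synthetases did, all of them in both libraries of both groups. The 5 calls among 32 synthetases, or 15.6%, stand beside 22.5% of all tested genes called in either direction (13.2% of tested genes called with more in the tagged pull-out and 9.35% with less). At an unadjusted p below 0.05, 3 of the 32 synthetases were higher and 7 lower, beside 3915 of the 9941 tested genes in either direction. Only SARS1 differed by more than 1 on the log2 scale, as did 10.2% of all tested genes. With upper-quartile scaling of the libraries 2 synthetases rose and 6 fell, the additional ones being KARS1, YARS1 and WARS2, and the increases made up 46.9% of all calls in place of 58.5%.

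**Figure D1:**
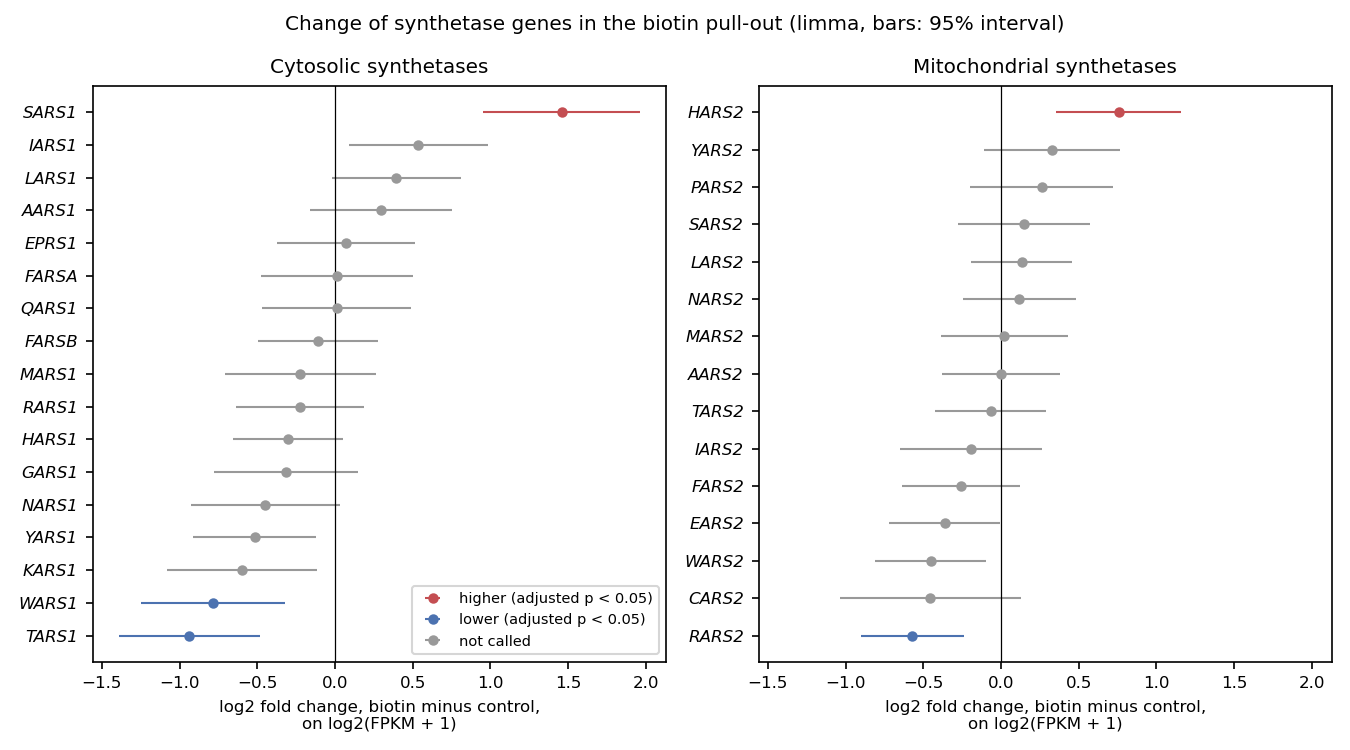
Log2 fold change of each tested synthetase gene, biotin minus control, on log2(FPKM + 1), with bars for the 95% interval of limma; red points rose, blue points fell and grey points did not pass the adjusted threshold. SARS1 stands at 1.46 and TARS1 at -0.94, and most intervals of the other genes span 0.

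SARS1 encodes the cytosolic enzyme that charges tRNA with serine, and its log2 fold change was the largest of the tested synthetases when transcripts were summed. It was at 13.1 and 17.2 FPKM in control replicates 1 and 2 and at 46.5 and 39.8 FPKM in biotin replicates 1 and 2. Both biotin libraries were above both controls, and the group means of 15.1 ± 2.85 and 43.1 ± 4.72 FPKM (SD, n = 2) differed 2.85-fold. The log2 fold change was 1.46 ± 0.21 (SE), with an adjusted p of 0.0069 (limma). Nearly all of it came from the transcript NM_006513, of 1939 nt, on chr1:109213893-109238182. A noncoding row of the gene, NR_034072, had 2.67 FPKM in control replicate 2 and 0 in the other libraries. Without control replicate 1 the log2 fold change was 1.28 (adjusted p = 0.0739, limma) and without control replicate 2 it was 1.64 (adjusted p = 0.0522, limma). The call held without biotin replicate 1 (adjusted p = 0.0431, limma) or biotin replicate 2 (adjusted p = 0.0297, limma).

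TARS1, the cytosolic enzyme for threonine, moved the other way. It was at 42.4 and 49.9 FPKM with the untagged duplex and at 22.7 and 24.5 FPKM in the biotin pull-outs. The libraries of the groups did not overlap, and the control mean was 1.96 times the biotin mean. The log2 fold change was -0.94 ± 0.19 (SE; adjusted p = 0.0198, limma). All of the signal was in a single row of the gene, NM_001258437, on chr5:33440696-33468091, and the other 5 rows were listed at 0. The control level of TARS1 was the highest of any synthetase, and in both biotin libraries it was below those of AARS1, IARS1, SARS1, MARS1 and KARS1.

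WARS1, the cytosolic enzyme for tryptophan, was at 24.1 and 29.8 FPKM with the untagged duplex and at 16.1 and 14.3 FPKM in the biotin pull-outs. The log2 fold change was -0.78 ± 0.19 (SE; adjusted p = 0.0339, limma), and the groups did not overlap. Its transcripts were divided differently in the groups. The row NM_173701 held all of the control signal, 24.1 and 29.8 FPKM, and 9.43 and 5.49 FPKM in the biotin pull-outs. The row NM_213645 was listed at 0 in both controls and at 6.72 and 8.77 FPKM in the biotin pull-outs. Transcripts of a gene share most of their bases, so the division of reads between such rows is an estimate of the authors' software.

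RARS2, the mitochondrial enzyme for arginine, had 1 deposited row. It was at 4.21 and 4.39 FPKM with the untagged duplex and at 2.48 and 2.65 FPKM in the biotin pull-outs. The log2 fold change was -0.57 ± 0.14 (SE; adjusted p = 0.0320, limma), from group means of 4.30 ± 0.129 and 2.57 ± 0.122 FPKM (SD, n = 2). The replicates of RARS2 lay closer together than the groups did.

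HARS2, the mitochondrial enzyme for histidine, was the only mitochondrial synthetase that rose. It was at 2.17 and 3.002 FPKM with the untagged duplex and at 4.88 and 5.17 FPKM in the biotin pull-outs, and the groups did not overlap. The log2 fold change was 0.76 ± 0.17 (SE; adjusted p = 0.0257, limma). The row NM_012208 was listed at 0 in both controls and at 3.05 and 5.17 FPKM in the biotin pull-outs, while NM_001278731 went from 2.17 and 1.73 FPKM to 1.82 and 0. HARS2 lies next to HARS1, the cytosolic enzyme for histidine, and in the deposited rows the loci overlap by 302 bp at chr5:140691426-140691727. The strand setting of the counting is not given in the sources used here, so reads in that stretch could have been given to either gene. HARS1 was at 4.69 and 5.12 FPKM with the untagged duplex and at 4.02 and 3.55 FPKM in the biotin pull-outs (log2 fold change -0.30 ± 0.15, SE; adjusted p = 0.176, limma).

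**Figure D2:**
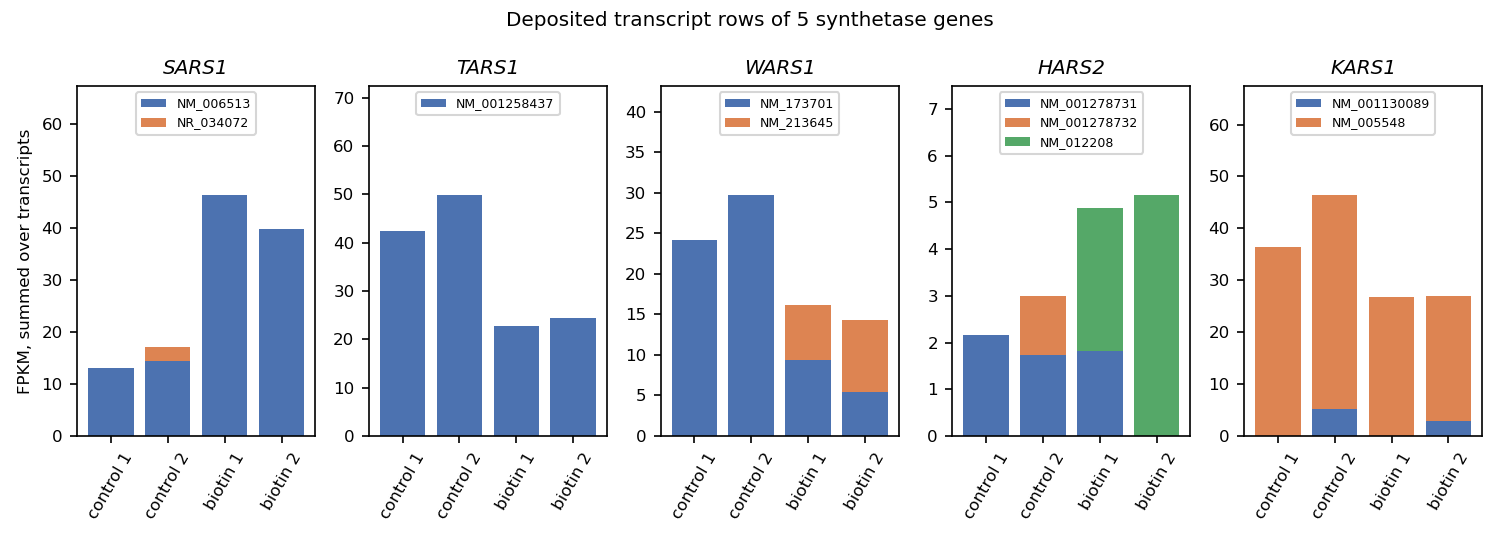
FPKM of the deposited transcript rows of SARS1, TARS1, WARS1, HARS2 and KARS1, stacked for each library; each colour is a RefSeq row. In WARS1 and HARS2 a row at 0 in both controls holds part or all of the biotin signal, and in KARS1 the row NM_001130089 is above 0 in replicate 2 of both groups alone.

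None of TARS1, WARS1, HARS2 and RARS2 passed when a library was left out, whichever it was. Without control replicates 1 and 2 and biotin replicates 1 and 2 in turn, the adjusted p (limma) was 0.0809, 0.110, 0.0877 and 0.0739 for TARS1. It was 0.0915, 0.151, 0.0926 and 0.144 for WARS1, 0.113, 0.0644, 0.101 and 0.123 for HARS2, and 0.107, 0.120, 0.150 and 0.123 for RARS2. Their directions held in each of these fits, with log2 fold changes of -1.05 to -0.82 for TARS1, -0.93 to -0.64 for WARS1, 0.59 to 0.93 for HARS2 and -0.61 to -0.54 for RARS2. An exact permutation test of 1 gene over 2 libraries against 2 cannot go below p = 0.333, so the calls rest on the spread that limma pools over genes. Without a filter on low values WARS1, HARS2 and RARS2 did not pass (adjusted p = 0.0733, 0.0859 and 0.0838, limma), and with the main transcript of each gene TARS1, WARS1 and RARS2 did not (adjusted p = 0.0624, 0.0565 and 0.0950, limma). In that last setting the log2 fold change was -1.76 for WARS1 and 2.32 for HARS2, which passed (adjusted p = 0.0320, limma), 1.57 for SARS1, and the same as with summed transcripts for TARS1 and RARS2.

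The other cytosolic enzymes outside the complex did not pass. AARS1, the enzyme for alanine and the member with the highest mean level, was at 41.9 and 46.6 FPKM with the untagged duplex and at 57.7 and 51.4 in the biotin pull-outs. Both biotin values of AARS1 were above both controls, and its log2 fold change was 0.30 ± 0.19 (SE; adjusted p = 0.288, limma). YARS1, for tyrosine, was at 6.24 and 7.21 FPKM with the untagged duplex and at 4.84 and 3.99 in the biotin pull-outs (log2 fold change -0.52 ± 0.16, SE; adjusted p = 0.0673, limma). NARS1, for asparagine, stood at -0.45 and GARS1, for glycine, at -0.31 on the log2 scale. The catalytic and the partner subunit of the enzyme for phenylalanine, FARSA and FARSB, stood at 0.01 and -0.11, with 95% intervals from -0.47 to 0.50 and from -0.49 to 0.27.

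Of the 7 listed enzymes of the multi-synthetase complex, none passed the test, where 22.5% of all tested genes did. At an unadjusted p below 0.05, 1 of the 7 was higher and 1 lower, beside 3915 of 9941 tested genes in either direction. IARS1, the enzyme for isoleucine and the only member with a seed match in its 3′ UTR, was at 33.1 and 37.3 FPKM with the untagged duplex and at 49.7 and 53.2 FPKM in the biotin pull-outs. Both biotin values of IARS1 were above both controls, at a log2 fold change of 0.54 ± 0.18 (SE) and an adjusted p of 0.0826 (limma); with median-of-ratios scaling it passed (0.61, adjusted p = 0.0460, limma). With its main transcript only IARS1 stood at 0.35 (adjusted p = 0.338, limma), and over the other settings, fits without a library included, its adjusted p ran from 0.0536 to 0.241. KARS1, for lysine, was at 36.4 and 46.5 FPKM with the untagged duplex and at 26.8 and 26.9 FPKM in the biotin pull-outs (-0.60 ± 0.20, SE; adjusted p = 0.0761, limma).

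LARS1, for leucine, stood at 0.40, RARS1, for arginine, at -0.23, and MARS1, for methionine, at -0.22 on the log2 scale. EPRS1 and QARS1, for glutamine, stood at 0.07 and 0.01, with 95% intervals from -0.37 to 0.52 and from -0.47 to 0.49. The sign of EPRS1, QARS1 and FARSA turned under upper-quartile and quantile scaling. The enzymes of the complex thus did not share a direction, with 4 above and 3 below 0 and a median of 0.01. The noncatalytic scaffold AIMP2 was at 27.2 and 32.0 FPKM with the untagged duplex and at 22.4 and 19.2 in the biotin pull-outs, and AIMP1 at 2.73 and 1.88 against 1.445 and 1.32. Neither scaffold passed (log2 fold changes -0.49 ± 0.19 and -0.46 ± 0.17, SE; adjusted p = 0.111 and 0.102, limma). The third scaffold, EEF1E1, was listed at 0 in all 4 libraries.

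The other tested mitochondrial enzymes stood between -0.45 and 0.33 on the log2 scale. With a pseudocount of 0.1 in place of 1 they stood between -0.58 for WARS2 and 0.41 for PARS2. The lowest after RARS2 were CARS2, for cysteine, at -0.45 and WARS2 at -0.45 on the log2 scale. WARS2 was at 3.43 and 4.01 FPKM with the untagged duplex and at 2.28 and 2.61 in the biotin pull-outs (adjusted p = 0.0726, limma). CARS2 was at 3.70 and 6.58 FPKM in the controls, the widest control pair among the tested members, and at 3.54 and 3.19 in the biotin pull-outs. EARS2, for glutamate, stood at -0.36, FARS2 at -0.26, IARS2 at -0.20 and TARS2 at -0.07. AARS2 and MARS2 stood at 0.00 and 0.02, NARS2 at 0.12, LARS2 at 0.13, SARS2 at 0.15, PARS2, for proline, at 0.26 and YARS2 at 0.33. None of these 13 genes passed the test. At an unadjusted p below 0.05 the mitochondrial enzymes held 1 gene that was higher, HARS2, and 3 that were lower, RARS2, WARS2 and EARS2. Over all tested genes 3915 of 9941 were below that p in either direction.

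By compartment, 1 of 17 tested cytosolic enzymes rose and 2 fell, or 17.6% called. Among 15 tested mitochondrial enzymes 1 rose and 1 fell, or 13.3% called. Over all tested genes 22.5% were called, 13.2% with more in the tagged pull-out and 9.35% with less. The median log2 fold change was -0.22 for the cytosolic and 0.00 for the mitochondrial enzymes, beside -0.06 over all 9941 tested genes. Over the 4 pairs of a biotin with a control library the mitochondrial median lay between 0.095 and 0.226 above the cytosolic one. No test was made of that difference, since genes are not replicates. Without control replicate 1 it was 0.04 and without control replicate 2 it was 0.08. In 13 of 17 cytosolic and 9 of 15 mitochondrial enzymes the libraries of the groups did not overlap, or 22 of 32 in all (68.8%). That share was near the background of 67.1% over all tested genes. Both biotin libraries were above both controls in 7 of the 32 tested synthetases and below both in 15 of the 32. Out of all 9941 tested genes, 2918 (29.4%) had biotin above and 3751 (37.7%) had biotin below.

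Levels differed far more between the compartments than between the groups. The median cytosolic synthetase was at 18.0, 17.2, 18.5 and 18.0 FPKM in control replicates 1 and 2 and biotin replicates 1 and 2. The median mitochondrial one was at 3.76, 4.198, 3.94 and 3.87 FPKM. Mitochondrial enzymes made up 19.4, 18.8, 19.0 and 18.8% of the summed FPKM of the family, so the balance of the compartments was alike in all 4 libraries. The synthetases together summed to 456.5 and 528.3 FPKM in the control pull-outs and to 481.6 and 466.8 in the biotin pull-outs.

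**Figure D3:**
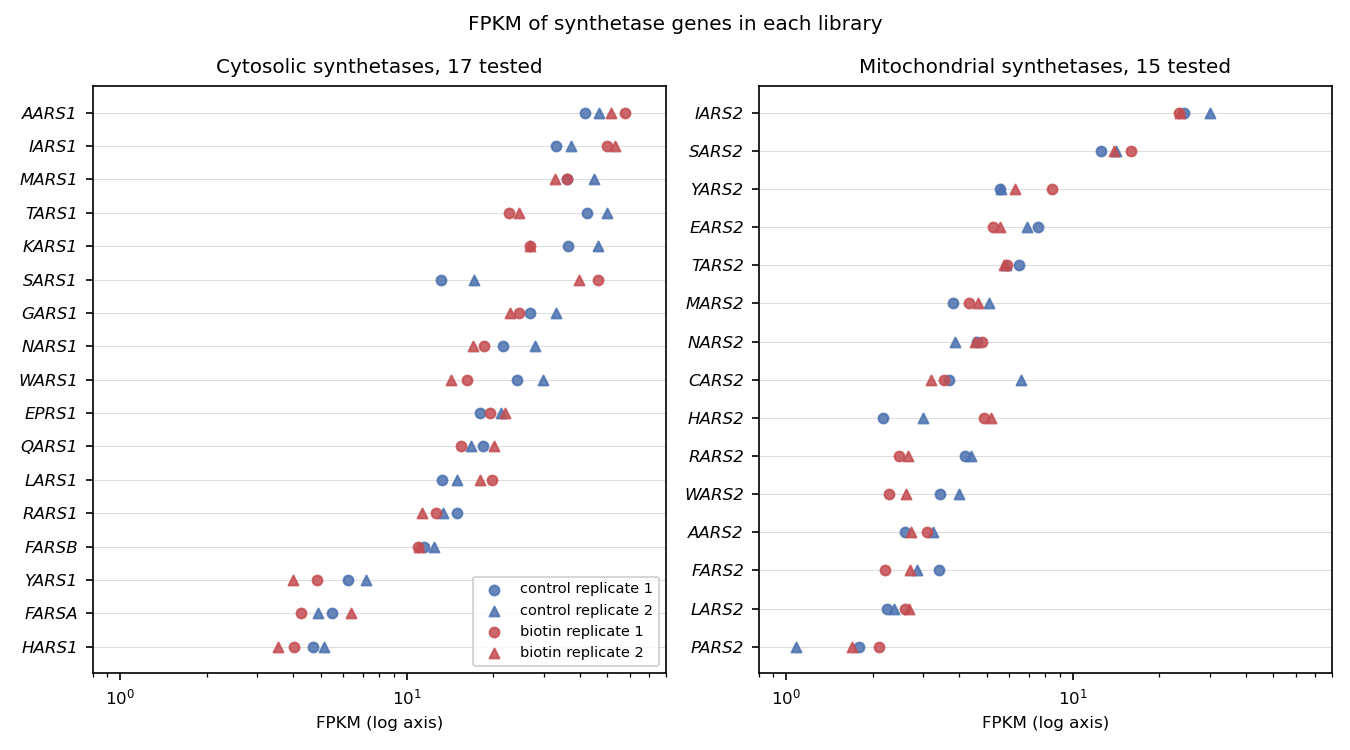
FPKM of each tested synthetase gene in each of the 4 libraries (log axis), cytosolic enzymes on the left and mitochondrial ones on the right, ordered by mean level; blue is control, red is biotin, and shapes are replicates. Mean levels run from 49.4 FPKM for AARS1 to 4.34 for HARS1 among cytosolic enzymes and from 25.3 for IARS2 to 1.67 for PARS2 among mitochondrial ones.

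Among tested genes, by mean FPKM over all libraries, the cytosolic order began with AARS1 (49.4), IARS1 (43.4), MARS1 (37.5), TARS1 (34.9), KARS1 (34.2) and SARS1 (29.1). It ended with FARSB (11.4), YARS1 (5.57), FARSA (5.25) and HARS1 (4.34). Among tested mitochondrial enzymes IARS2 (25.3) and SARS2 (14.1) stood above the rest, which lay between 6.47 for YARS2 and 1.67 for PARS2. IARS2 was at 24.3 and 30.0 FPKM in the control pull-outs and 23.3 and 23.6 in the biotin pull-outs, and PARS2 at 1.79 and 1.08 against 2.105 and 1.69. At the estimated depth PARS2 rested on about 46.1 to 95.3 reads per library, and its 46.1 in control replicate 2 were the fewest of any tested member in any library. Many neighbours in these orders, such as TARS1 and KARS1 or FARSA and HARS1, overlapped in their libraries.

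Among the amino acids with 1 cytosolic and 1 mitochondrial gene of matching symbol, both genes were tested in 11 pairs. Phenylalanine, glutamate and proline, whose cytosolic enzymes are FARSA with FARSB and EPRS1, were not paired. The cytosolic gene had the higher FPKM in all 4 libraries for 9 of these pairs, at ratios of mean FPKM up to 16.9 for AARS1 over AARS2. In the remaining pairs the order differed between the groups. HARS1 was 2.16 and 1.70 times HARS2 in the controls and 0.83 and 0.69 times in the biotin pull-outs. YARS1 was 1.12 and 1.28 times YARS2 in the controls and 0.57 and 0.64 times in the biotin pull-outs. The ratio of SARS1 to SARS2 was 1.05 and 1.22 without the tag against 2.93 and 2.88 with it, since SARS2 stood at 12.5 and 14.1 against 15.9 and 13.8 FPKM. The ratio of IARS1 to IARS2 was 1.36 and 1.24 against 2.13 and 2.25. In 6 pairs both genes had a log2 fold change of the same sign and in 5 of opposite sign, and in no pair did both pass the test. The differences within pairs were not tested.

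**Figure D4:**
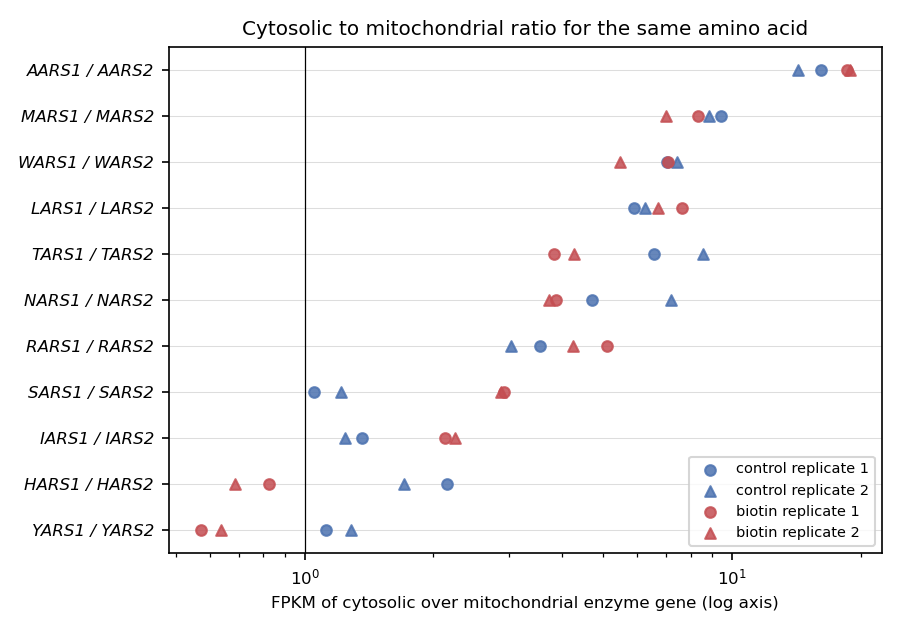
Ratio of the FPKM of the cytosolic to that of the mitochondrial enzyme gene for 11 amino acids in each library (log axis); blue is control, red is biotin, shapes are replicates and the line marks equal FPKM. For HARS and YARS the control libraries lie above 1 and the biotin libraries below it, and for SARS the biotin libraries lie near 2.9 and the controls between 1.05 and 1.22.

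Synthetases fall into 2 unrelated structural classes, named I and II. Of the class I genes 15 of 18 were tested, of which 0 rose and 2 fell (WARS1 and RARS2), or 13.3% called. Of the class II genes all 16 were tested, of which 2 rose (SARS1 and HARS2) and 1 fell (TARS1), or 18.8% called, where 22.5% of all tested genes were called. EPRS1, with a domain of each class, was counted in neither. The median log2 fold change was -0.22 for class I and -0.03 for class II, and this difference was not tested. Removing any 1 library ended each of these calls except that of SARS1, with the values given above. The call of SARS1 was lost without control replicate 1 or control replicate 2 and held without either biotin library.

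The 3 synthetases that were not tested were CARS1, for cysteine, and VARS1 and VARS2, for valine. VARS1 was listed at 0 in all libraries on all 7 of its rows, where 3 reads would have given 0.044, 0.039, 0.040 and 0.030 FPKM. CARS1 was at 0.046, 0.032, 0.010 and 0.044 FPKM over 10 rows, below what 3 reads give in each library. VARS2 was at 0.083, 0.067, 0.121 and 0.283 FPKM over 18 rows, about 4.04 to 22.6 reads. These floors cover counting error only. All 3 genes, and none of the tested synthetases, had further rows on alternate contigs, which are second copies of variable regions in the genome build. Of 748 mRNA genes with rows on both a primary chromosome and an alternate contig, 95.3% stayed below 1 FPKM in every library, against 46.2% of 18191 mRNA genes on primary chromosomes alone. BAG6 and CSNK2B, genes near VARS1 on chromosome 6 that most cells use, were likewise listed at 0 in all libraries. Whether the alternate copies account for these low values was not tested, and the levels of CARS1, VARS1 and VARS2 in DU-145 cannot be read from these tables.

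Replicates of a group were close for the family. In the controls the log2 ratio of replicate 1 to replicate 2 had a median of -0.17 and ran from -0.69 for CARS2 to 0.42 for PARS2. In the biotin libraries its median was 0.05 and it ran from -0.49 for FARSA to 0.38 for YARS2. Replicate 1 was the higher in 8 of 32 synthetases in the controls and in 17 of 32 in the biotin pull-outs. KARS1 had its row NM_001130089 at 5.20 FPKM in control replicate 2 and 2.93 in biotin replicate 2 and at 0 in both libraries numbered 1, beside the row NM_005548 at 24.0 to 41.3 FPKM.

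Other genes of tRNA charging and delivery were described from a list of 20, of which 18 were tested. In that list 1 gene rose, 0 fell and 17 did not pass, or 5.56% called beside 22.5% of all tested genes. Of the 18, 14 stood below 0, as did 5506 of the 9941 tested genes, with a median log2 fold change of -0.35 beside -0.06 over all tested genes. At an unadjusted p below 0.05 AIMP1, AIMP2, DTD1, QRSL1, TRNT1, EEF1A1 and XPOT were lower and MTFMT was higher. Of all 9941 tested genes 3915 were below that p in either direction. MTFMT, which formylates the initiator methionyl-tRNA of mitochondria, was the gene that rose, from 0.99 and 1.85 to 3.72 and 3.05 FPKM. Its log2 fold change was 0.88 ± 0.21 (SE; adjusted p = 0.0314, limma), and it did not pass without any 1 of the 4 libraries (0.119, 0.0572, 0.142 and 0.0944 as adjusted p of limma, in the order control replicates 1 and 2 and biotin replicates 1 and 2). With upper-quartile scaling 4 genes of this list fell.

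Genes of the amino-acid response, in which ATF4 raises synthetases, transporters and enzymes of amino-acid synthesis, were taken from a list of 22. Of 21 tested genes 6 rose, 1 fell and 14 did not pass, or 33.3% called beside 22.5% of all tested genes. SLC7A5, a transporter of large neutral amino acids, rose from 53.6 and 59.7 FPKM in the controls to 313.1 and 330.6 in the biotin pull-outs, a log2 fold change of 2.49 ± 0.19 (SE; adjusted p = 0.00101, limma). SLC7A5 passed in all 4 fits without a library. Its partner subunit SLC3A2 was at 70.2 and 82.7 against 92.6 and 102.4 FPKM and did not pass (adjusted p = 0.239, limma).

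CHAC1, which degrades glutathione, rose from 6.40 and 7.80 to 32.1 and 49.5 FPKM (log2 fold change 2.34 ± 0.25, SE; adjusted p = 0.0027, limma), and lost the call without control replicate 1 (log2 fold change 2.22, adjusted p = 0.0621, limma). ATF5, a transcription factor, was listed at 0 in both controls and at 5.18 and 4.77 FPKM in the biotin pull-outs (log2 fold change 2.58). ATF5 reached the 1 FPKM needed for testing in the biotin libraries alone, so its count among the 6 that rose is a description only. EIF2AK3, a kinase that lowers translation under stress of the endoplasmic reticulum, rose from 1.03 and 1.13 to 3.38 and 4.37 FPKM (log2 fold change 1.22 ± 0.16, SE; adjusted p = 0.0052, limma). It lost the call without control replicate 1 (adjusted p = 0.0682, limma) or control replicate 2 (adjusted p = 0.0573, limma). SESN2, a regulator of the growth kinase mTORC1, stood at 0.90 (adjusted p = 0.0122, limma) and passed only without biotin replicate 2 (0.0473) among the fits that left out a library. PSPH, which completes the synthesis of serine, was at 4.42 and 4.25 against 6.71 and 6.79 FPKM (log2 fold change 0.54; adjusted p = 0.0415, limma), and passed in none of those fits (adjusted p between 0.124 and 0.159).

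The gene that fell was ASNS, which makes asparagine and is a standard target of ATF4. It was at 18.1 and 24.8 FPKM with the untagged duplex and at 11.9 and 10.8 in the biotin pull-outs (log2 fold change -0.85 ± 0.21, SE; adjusted p = 0.0334, limma), and no fit without a library called it (adjusted p between 0.0775 and 0.141, limma). ATF4 itself was at 36.2 and 40.3 against 28.3 and 21.8 FPKM (adjusted p = 0.0810, limma). The list thus held changes in both directions, and its median log2 fold change was -0.07.

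**Figure D5:**
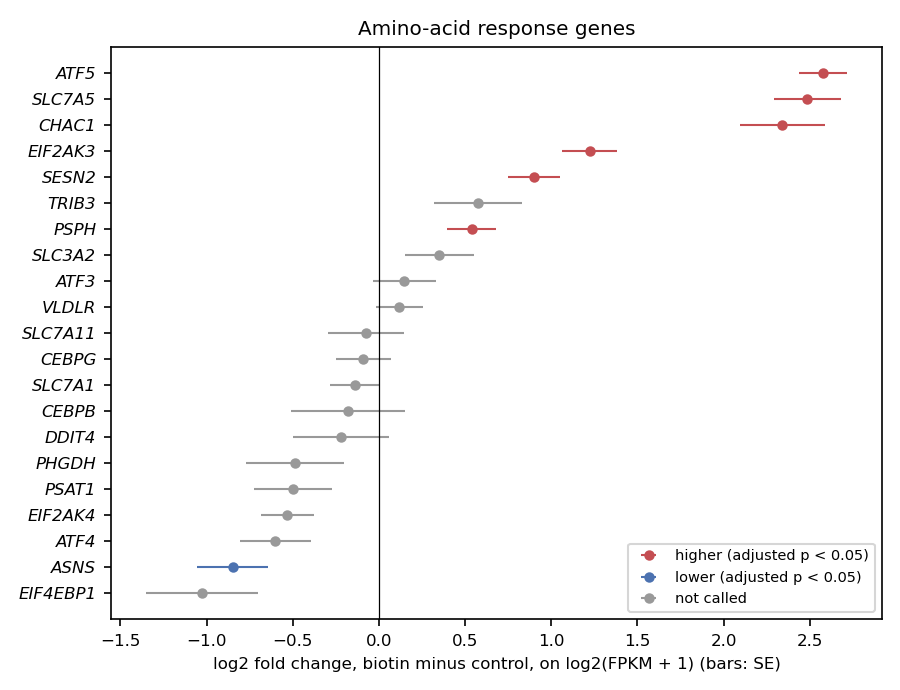
Log2 fold change of the 21 tested amino-acid response genes, biotin minus control, on log2(FPKM + 1), with bars for the SE; red points rose, the blue point fell and grey points did not pass. ATF5, listed at 0 in both controls, stands at 2.58, SLC7A5 at 2.49 and CHAC1 at 2.34, while ASNS stands at -0.85.

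Beside WARS1, a list of 12 interferon genes was examined, of which 7 were tested. Of these, 0 passed in limma at the adjusted threshold, where 22.5% of all tested genes did. In 6 of the 7 genes replicate 1 was above replicate 2 in both groups, with MX1 at 24.8 against 5.29 FPKM with the untagged duplex and at 15.3 against 2.50 in the biotin pull-outs. WARS1 did not follow that order, since its control replicate 1, at 24.1 FPKM, was below control replicate 2, at 29.8. The part of these genes in the WARS1 result was not tested.

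Over the whole series, the deposited coverage divided by FPKM gave an estimated depth of between 16030000 and 23640000 mapped reads, at which 3 reads on 1 kb are worth 0.127 to 0.187 FPKM. Genes of short structured RNAs held 568904 to 717091 FPKM in the control pull-outs and 244930 to 304281 in the biotin pull-outs. Their mapped fragments count in the total to which FPKM is scaled. FPKM is also scaled to transcript length, so these sums are not shares of the mapped fragments. The share of fragments from these genes was not computed. The epithelial markers KRT8, KRT18, KRT19, EPCAM and CDH1 were all above 1 FPKM in every library and none was called. Their summed level was 141.5 and 172.8 FPKM in the control pull-outs and 125.6 and 124.6 in the biotin pull-outs. All 5 fibroblast markers, 4 of 5 blood cell markers and 3 of 4 neuroendocrine markers stayed below 1 FPKM in every library. CD14, a marker of blood cells, rose from 0.67 and 0.37 to 2.57 and 1.28 FPKM, and ENO2, a neuroendocrine marker, from 3.67 and 5.03 to 7.76 and 7.14 FPKM (adjusted p = 0.0436 and 0.0434, limma). The 1 FPKM needed for testing was reached by CD14 in the biotin libraries alone, so its call is a description only. CD14 passed only without biotin replicate 2 among the fits that left out a library (log2 fold change 0.59 to 1.24; adjusted p 0.0300 to 0.200, limma), and ENO2 passed in none (adjusted p 0.0797 to 0.175, limma). Of the other blood cell markers CD3E, HBB and PTPRC were listed at 0 in all libraries and LYZ was at 0.083 FPKM in biotin replicate 1 alone. Of the other neuroendocrine markers CHGA was listed at 0 in all libraries, SYP was at 0.071 to 0.167 FPKM and NCAM1 at 0 to 0.026 FPKM. PTPRC and CHGA, like VARS1, have rows on alternate contigs.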

How the data were processed

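Streptavidin pull-out RNA of DU-145 cells was sequenced as stranded total RNA libraries with single reads of 50 bases, per the labels' protocols. The tools in the submitters' processing notes are Cufflinks 2.1.1, Cuffdiff, TopHat2 2.0.9, FastQC 0.10.1 and cutadapt, and the build is hg38. Settings, annotation and strandedness of counting: not given in the sources used here. The authors deposited a table per library with 53209 transcript rows in FPKM, per the file headers. Per the file headers the tables also give coverage, the signal used here only to estimate depth, and the transcript length in bases, a value of no other unit.

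Of 46699 RefSeq accessions, 98.6% were named from RefSeq (GRCh38.p14) or GENCODE 29. Gene FPKM was the sum over rows. The 22 genes with a failed or excess-data row and the 2281 short structured RNA genes were left out of the tests. The test was limma 3.58.1 (R 4.3.3), two-sided, with a variance trend. The pseudocount of 1 understates changes of low genes. The fit was tested on simulated data. The residual degrees of freedom, 2, were raised by 4.21 from the prior.

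Alternatives were other pseudocounts, filters and scalings, no variance trend, the main transcript only, the replicate block and each library left out. All 35 members were accounted for, with values per library for called members and for the extremes of each compartment, and other lists gave at most their called genes, the scaffolds and a few genes that a comparison needed. Members and lists were chosen with earlier results of these data known. Some items of the marker and interferon lists are not reported here.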

Additional observations from a re-analysis of the deposited data

How the results depend on the processing

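The 5 synthetase calls held with pseudocounts of 0.1 and 5, without a variance trend, with 3 other scalings and, chosen after seeing the data, without genes on alternate contigs. Of 341 member values under other settings, 314 kept their direction and side of the threshold, and 12 changed sign. Apart from genes that a filter left untested, the cause of the changes below was not tested. With no filter on low values 653 genes rose and 231 fell, 1 synthetase rose (SARS1) and 1 fell (TARS1), and 0 accessories rose and 0 response genes fell. With a mean of at least 5 FPKM the counts were 1 synthetase higher, 0 accessories higher and 1 lower, and 3 response genes higher and 3 lower. HARS2, RARS2, MTFMT, ATF5, SESN2 and EIF2AK3 had means below 5 FPKM, so they were not tested in that setting. Upper-quartile scaling gave 6 synthetases, 4 accessories and 4 response genes lower, and quantile normalization 6, 3 and 4. With the main transcript only, 423 genes rose and 152 fell, 0 synthetases fell, 0 accessories rose, and 3 response genes rose and 0 fell. With the replicate block 1082 genes rose and 537 fell, 2 synthetases rose and 1 fell, 0 accessories rose and 0 response genes fell. The replicate numbers were not shown to pair the libraries (r = 0.0027 across 9941 genes, which are not independent), so the block is no test of a weaker effect. With 1 library left out at a time, where a lone library is assumed to vary like the other group, 195 to 674 genes rose and 32 to 219 fell. In those fits 0 to 1 synthetases rose and 0 fell, 0 accessories rose, and 2 to 5 response genes rose and 0 fell. The cytosolic median was -0.173 with a pseudocount of 5, -0.166 with no filter, -0.166 with a mean of at least 5, -0.306 and -0.308 with upper-quartile and quantile scaling, -0.149 with median-of-ratios scaling, and -0.292 to -0.0668 with a library left out. The mitochondrial median was -0.0669 with a mean of at least 5, -0.063 with upper-quartile and 0.0571 with median-of-ratios scaling, -0.0795 with the main transcript, and -0.123 to 0.0162 with a library left out. Their difference was 0.0994 with a mean of at least 5, 0.303 with quantile normalization, 0.143 with the main transcript, and 0.0425 to 0.223 with a library left out. Signs turned only in genes near 0. These were AARS2 (-0.000777 with a pseudocount of 5, -0.063 upper-quartile, -0.00525 quantile), EPRS1 (-0.00873 and -0.0393), FARSA (-0.0579 and -0.00637), QARS1 (-0.0712, -0.102 and, with the main transcript, -0.151), MARS2 (-0.0467 upper-quartile) and SARS2 (-0.0795, main transcript). With a library left out AARS2 ran from -0.123 to 0.124, EPRS1 from -0.0408 to 0.187, FARSA from -0.23 to 0.257, MARS2 from -0.145 to 0.189 and QARS1 from -0.172 to 0.192. The 6-base site raised the matches from 1 to 6 in the 3′ UTR and from 4 to 14 in the coding region. VARS1 was at 0 and CARS1 below the 3-read floor in every library, so no change of either could be read. The cause of these low values was not tested.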
